A study of Mus musculus with 22 samples.

Results

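Alveolar macrophages sorted 3 d after induced lung injury were compared with control alveolar macrophages. The libraries were taken by their labels, as the 4 control and the 3 at 3 d in the count table of the sorted macrophages. They make up 7 of the 22 libraries of the series, which also holds 3 macrophage libraries at 14 d and sorted monocytes. All groups were C57BL/6 mice of the genotype labelled SP-CI73T mutant, in which a point mutation of surfactant protein C (SP-C), made by type II cells of the alveolar epithelium, is carried in a form whose expression can be raised. A neomycin cassette holds the mutant allele low until an estrogen-receptor-controlled Flp-O recombinase, knocked in at Rosa26, removes it after tamoxifen, given once by gavage. The 3 d group received tamoxifen and was collected 3 d later. The controls are labelled untreated. The study describes the controls of its sorted monocytes as mutants given oil, while its general methods pool such mice with tamoxifen-treated mice that lack Flp-O, and the macrophage controls are not described separately. Where a control received no tamoxifen, tamoxifen itself and induction of the mutant cannot be told apart. The cells carry the sort label SigF+CD11b-, which selects for Siglec-F and against CD11b. The study's methods describe lavage and then collagenase digestion of the lungs, with cells of both stained. They do not say from which the sorted macrophages came. Nothing states that the libraries of a group came from separate mice, so the p-values measure the spread between these libraries.

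Alveolar macrophages live on the airspace surface, clear surfactant, dead cells and microbes, and depend on GM-CSF from the alveolar epithelium. They carry Siglec-F, MARCO and CD11c and little CD11b, whereas recruited monocytes carry CD11b and Ly6C. After epithelial injury, resident macrophages are among the cells that can release cytokines and chemokines which draw in other leukocytes.

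Levels are counts scaled to library size (CPM) with TMM factors, and a fold change is 3 d over control. A gene was called where its adjusted p was under 0.05 and its fold change over 1.5. The deposited counts summed to 14437070 to 17074863 per control library and 10692871 to 15410838 per 3 d library, and 20944 of 31134 genes passed the filter on low counts. Of the genes of the sort label, Siglecf lay at 231 to 348 CPM in controls and at 171, 322 and 124 at 3 d, so that the groups overlapped. Itgam (CD11b) lay at 0.73 to 2.66 CPM in controls and at 18.3, 3.65 and 12.4 at 3 d. Neither passed the test. Other markers of alveolar macrophages were high in all 7 libraries: Itgax (CD11c) lay at 942 to 1160 CPM in controls and 1140 to 1310 at 3 d, and Marco at 541 to 848 and 448 to 622. Ly6c2 lay at 1.51 to 3.34 CPM in controls and 2.64 to 6.15 at 3 d, against 2570 to 3280 in the separately normalised control monocytes. Plac8, another monocyte gene, lay at 4.12 to 10.6 CPM in controls and 17.2 to 89.4 at 3 d, against 3000 to 3340 in those monocytes, and was not called. Vcan lay at 0.918 to 2.58 and 2.1 to 9.49, against 50.3 to 112, and Ccr2 at 13.2 to 25.1 and 12.5 to 32.4, against 875 to 2840. All 7 libraries carried Xist (1747 to 4444 counts) and at most 3 counts from Y chromosome genes. The 3 d replicate 2 stood nearer the controls than the other two. On the first principal component, which held 52.2% of the variance of the 500 most variable genes, controls lay from -25.95 to -10.47 and the 3 d libraries at 30.08, 7.24 and 33.08. For many of the gene groups, counts are therefore also given without that library. The fit without it called 5.77% of all genes tested, the share beside which those counts stand.

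At 3 d, 267 genes were called (1.27% of those tested), 220 of them higher (1.05%) and 47 lower (0.224%). The genes that rose included receptors, proteases and enzymes of mast cells and basophils, the cytokines Il6 and Csf1, the chemokine Ccl17 and 5 mitochondrially encoded respiratory genes. Those that fell included Sftpc, Treml4, the Fc receptor gene Fcgr4, complement C3 and the inhibitory lectin gene Siglece. The median log2 fold change over all genes tested was -0.01. An unadjusted p under 0.05 was reached by 2944 of the 20944 genes tested, the background for such counts in the gene groups below. All 267 called genes had no overlap between the control and the 3 d libraries, as against 14% of all genes tested. Replicate 2 was the lowest of the 3 d libraries for 172 of the 220 genes called higher, against 33.2% of all genes tested. Among the 47 called lower, replicate 2 was the highest for 40. Without it 1476 of 25569 genes tested were called (5.77%), 802 higher and 674 lower, and these held 265 of the 267; without 3 d replicate 1 the count was 77, without 3 d replicate 3 it was 111, and without control replicates 1, 3 and 4 it was 92, 146 and 101.

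**Figure D1:**
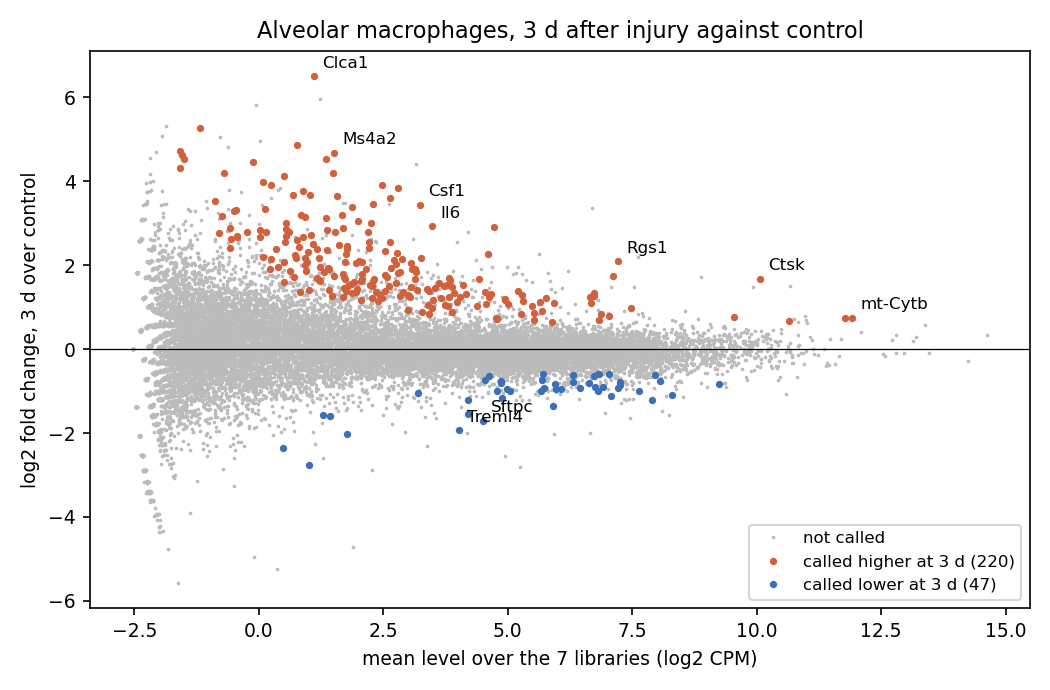
Each point is 1 of 20944 genes, with its mean level over the 7 libraries (log2 CPM) on the x axis and its log2 fold change, 3 d over control, on the y axis; orange points are the 220 genes called higher and blue points the 47 called lower. Genes called higher reach larger changes, up to 6.50 for Clca1, and most of those called lower lie between 0 and -2.

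Sftpc, the gene whose mutant form the model induces, was lower at 3 d in these macrophages. It lay at 38.6, 36.8, 39.3 and 36.5 CPM in the controls and at 12.4, 7.61 and 14.9 CPM at 3 d, so that every 3 d library lay below every control. The log2 fold change was -1.70 (SE 0.22, adjusted p = 0.00125), and the call held under all 20 alternatives. Sftpb, another surfactant protein gene of type II cells, lay at 7.76 to 10.4 CPM in controls and 9.31 to 13.9 at 3 d, with a log2 fold change of 0.34 (SE 0.21) that did not pass the test. In bulk RNA of sorted cells, fewer cells of a type and less RNA per cell cannot be told apart. Of the 25 epithelial genes listed, Sftpc was the 1 called lower and Krt8, Krt18 and Hopx were called higher. Of the 25, 18 had a fold change above 1, and the median log2 fold change was 0.88. By part of the list, the median was 0.21 for the 14 alveolar genes, of which 8 lay above 1-fold. It was 2.99 for the 6 airway genes, all above 1-fold with 0 called, and 0.91 for the 5 general epithelial genes. Krt8, a keratin of simple epithelia, lay at 0.548 to 0.852 CPM in controls and at 8.96, 1.86 and 8.13 CPM at 3 d, with a log2 fold change of 3.14 (SE 0.47, adjusted p = 0.00514). Without 3 d replicate 2, 6 of the 25 were higher and 3 lower; without 3 d replicates 1 or 3, or control replicates 1 or 4, 2 were called, and without control replicate 2, 6. The summed level of the 25 genes was 1194 to 1555 CPM in controls and 1576 to 2232 at 3 d, with none of them at 0 in all libraries. Of that sum the airway gene Scgb1a1, which did not pass the test, took a mean of 43.9 CPM in controls and 450.9 at 3 d.

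Genes of mast cells and basophils rose together. These cells store histamine and proteases in granules and bind IgE through a high-affinity receptor. Of the 8 list members, all tested, 5 were called higher and 0 lower; the median log2 fold change was 3.75, beside -0.01 over all genes. Gata2, a transcription factor of both lineages, lay at 2.26, 1.98, 2.49 and 1.93 CPM in controls and at 40.6, 19.2 and 33.9 CPM at 3 d. Its log2 fold change was 3.84 (SE 0.26, adjusted p = 2.19e-06). Ms4a2, the beta chain of the IgE receptor, lay at 0.822, 0.684, 0.655 and 0.398 CPM in controls and rose to 22.2, 9.16 and 18.6 CPM, a log2 fold change of 4.68 (SE 0.39, adjusted p = 2.05e-05). Fcer1a, the alpha chain of the same receptor, rose by 4.86 on the log2 scale (SE 0.55), from at most 0.753 CPM in any control to 14.2, 4.89 and 11.99 CPM. Cpa3, a granule carboxypeptidase, rose by 3.65 (SE 0.50), and Mcpt8, a basophil protease, by 4.11 (SE 0.81). The receptor tyrosine kinase gene Kit, which marks mast cells, lay at 0.532 to 3.25 CPM in controls and 3.87 to 6.83 at 3 d and did not pass the test (adjusted p = 0.185). Summed over the list, the level was 4.79 to 13.3 CPM in controls and 109.6, 50.2 and 101.8 at 3 d, replicate 2 again being the lowest of the 3.

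Outside the list, and chosen after their values were seen, Hdc (histidine decarboxylase, which makes histamine) rose by 3.60 on the log2 scale, Cyp11a1 by 4.52, Cd200r3 by 4.19 and Ifitm1 by 3.92. These 4, with Gata2, Ms4a2, Fcer1a and Cpa3, were called under all 20 alternatives; Mcpt8 was called under 12. Leaving out any 1 library kept 4 or 5 of the 8 list members called. Cyp11a1 shares 145 bases of its exons with another annotated gene on the same strand.

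**Figure D2:**
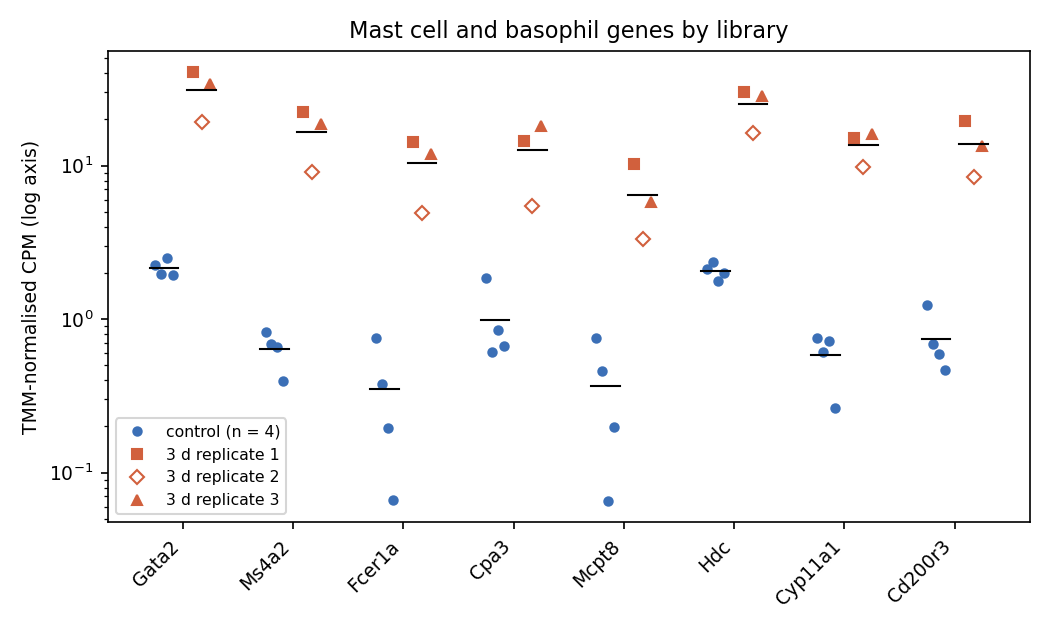
TMM-normalised CPM (log axis) of 8 genes in the 4 control libraries (blue circles) and in 3 d replicates 1 (squares), 2 (open diamonds) and 3 (triangles); black lines are group means. Every 3 d library lies above every control for each gene, and replicate 2 is the lowest of the 3 d libraries throughout.

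The promoters of the called genes were searched for binding motifs, in windows of 300 bases (250 before to 50 after the start) from RefSeq on GRCm38.p6. For 16 motifs each paired with a gene list, and a GATA motif added after the values were seen, the called members of 8 lists gave 17 pairs of a motif and a gene, 16 with a window. The GATA letters, AGATAA or TGATAA on either strand, were found in Ms4a2, Fcer1a and Cpa3 of the 5 called genes and in 18.6% of all 32851 windows; Gata2 and Mcpt8 held none. Ms4a2 held 3 matches. Of the genes outside the list that were searched for the same letters, Cd200r3 held 2 matches, and Hdc, Cyp11a1 and Ifitm1 held none. Of the other lists, Ddit4 held ACGTG (hypoxia motif, in 19.6% of windows), Mt2 held 2 matches to TGCACNC (metal response, 12.6%) and Kif23 held TTTGAA (cell cycle, 17.9%). Fcgr4 held no TTCNNNGAA (8.3%), and Ctsk no CACGTG (7.15%) or GAGGAAGT (3.2%). The windows of the 3 called list members that held the GATA letters are printed, and capitals mark the motif. A match describes the letters only.
Ms4a2 (chr19:11623670-11623969, minus strand): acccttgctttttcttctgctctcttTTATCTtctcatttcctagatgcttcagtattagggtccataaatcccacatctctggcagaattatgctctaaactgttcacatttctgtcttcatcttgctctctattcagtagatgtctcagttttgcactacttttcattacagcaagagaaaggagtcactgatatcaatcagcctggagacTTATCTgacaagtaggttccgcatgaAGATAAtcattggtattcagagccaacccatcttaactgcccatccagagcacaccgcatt
Fcer1a (chr1:173227180-173227479, minus strand): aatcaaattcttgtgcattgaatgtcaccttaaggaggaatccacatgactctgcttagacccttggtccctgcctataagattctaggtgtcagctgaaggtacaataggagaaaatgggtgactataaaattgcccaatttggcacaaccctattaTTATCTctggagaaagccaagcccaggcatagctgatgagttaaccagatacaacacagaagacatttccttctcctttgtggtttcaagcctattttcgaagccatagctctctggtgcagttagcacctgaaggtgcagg
Cpa3 (chr3:20242132-20242431, minus strand): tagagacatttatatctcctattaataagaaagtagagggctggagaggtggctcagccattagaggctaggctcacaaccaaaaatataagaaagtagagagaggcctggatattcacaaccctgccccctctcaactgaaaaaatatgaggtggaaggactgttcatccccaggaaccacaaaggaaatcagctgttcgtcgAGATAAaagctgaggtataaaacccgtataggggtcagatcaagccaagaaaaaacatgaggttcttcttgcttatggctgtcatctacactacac

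Cytokine genes and genes of the NF-kB pathway, which carries signals from cytokine and pattern recognition receptors to inflammatory genes, included 5 called higher and 0 lower of 34 tested. The median log2 fold change of the list was 0.41, and 25 members were above 1-fold. Il6, an inflammatory cytokine, lay at 3.90, 10.9, 2.29 and 3.39 CPM in controls and at 41.9, 29.3 and 44.9 CPM at 3 d. The log2 fold change was 2.93 (SE 0.45, adjusted p = 0.012), with all 3 d libraries above all controls. Csf1, the growth factor of macrophages and monocytes, rose from 3.56, 5.63, 2.95 and 2.06 CPM to 44.4, 18.7 and 52.3 CPM, a log2 fold change of 3.44 (SE 0.49, adjusted p = 0.0135). Among inhibitors of the pathway, Tnfaip3 (A20) rose by 1.11 (SE 0.19), and Tnip3 by 1.96 (SE 0.44); Traf1, a receptor adaptor, rose by 2.34 (SE 0.33). Tnf did not pass the test: it lay at 46.8 to 97.8 CPM in controls and at 187, 107 and 27.1 CPM at 3 d, and the groups overlapped. Il1b lay at 36.4 to 250.2 CPM in controls and reached 432 CPM at 3 d (adjusted p = 0.397). Without 3 d replicate 2, 8 of the 34 were called; without 3 d replicate 1 or 3 or control replicate 3, 3 were, and without control replicate 1, 2. Il6 lost its call without 3 d replicate 1 or 3, and Csf1 without those or control replicates 1 or 3. The mast cell and basophil level moved with these genes, from 4.79 to 13.3 CPM in controls to 50.2 to 109.6 at 3 d, and its part in them was not tested.

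The NF-kB motif, GGGA and TTCC separated by 2 bases, was found in the windows of Il6 and Csf1 of the 5 called genes and in 1.47% of all windows. A match describes the letters only. Both windows are printed with the match in capitals.
Il6 (chr5:30012864-30013163, plus strand): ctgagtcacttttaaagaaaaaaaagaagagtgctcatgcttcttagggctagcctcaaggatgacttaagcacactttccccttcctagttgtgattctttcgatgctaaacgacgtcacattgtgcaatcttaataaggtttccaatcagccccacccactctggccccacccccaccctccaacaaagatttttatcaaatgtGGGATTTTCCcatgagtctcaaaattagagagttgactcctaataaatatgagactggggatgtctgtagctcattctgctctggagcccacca
Csf1 (chr3:107760420-107760719, minus strand): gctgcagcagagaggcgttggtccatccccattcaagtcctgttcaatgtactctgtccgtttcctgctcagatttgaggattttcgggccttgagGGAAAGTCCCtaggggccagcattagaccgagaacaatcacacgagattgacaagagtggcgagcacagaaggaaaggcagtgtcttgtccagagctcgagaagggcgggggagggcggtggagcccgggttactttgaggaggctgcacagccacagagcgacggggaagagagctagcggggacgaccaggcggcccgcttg

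Of 28 chemokine and chemoattractant receptor genes tested, 4 were called higher and 0 lower, with a median log2 fold change of 0.68. Ccl17, a ligand of CCR4, rose from 8.49, 8.82, 17.96 and 12.6 CPM to 73.0, 43.0 and 154 CPM, a log2 fold change of 2.90 (SE 0.48, adjusted p = 0.0296). C3ar1, the receptor of the complement fragment C3a, rose by 3.11 (SE 0.46), Ccl4 by 1.57 (SE 0.35) and Cxcl16 by 1.25 (SE 0.28). Without 3 d replicate 1 or 3, 0 of the list were called, without control replicates 1 or 4, 1, and without control replicate 3, 2. Cxcl5, a neutrophil-attracting chemokine, was not tested in the main fit because of its low counts. It had 0, 3, 0 and 0 counts in the controls and 71, 25 and 7 at 3 d. Ccr7, the receptor by which dendritic cells reach lymph nodes, lay at 16.0 to 20.5 CPM in controls and at 70.7, 48.0 and 89.2 CPM at 3 d, with an adjusted p of 0.0739. Cd40, a costimulatory receptor, was the 1 called gene of 14 in MHC class II presentation, with a log2 fold change of 1.80 (SE 0.41). Ccl17, Ccl4 and Cd40 each kept their call in 12 of the 20 alternatives, Cxcl16 in 9 and C3ar1 in 17. When 3 d replicate 2 was left out, Ccl4, Ccl17, C3ar1 and Cxcl5, which was then tested, were called higher. C5ar1 was called lower, and Cxcl16 lost its call. Of the MHC class II genes, 3 were higher and 1 lower without that library. That fit called 5.77% of all genes tested.

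**Figure D3:**
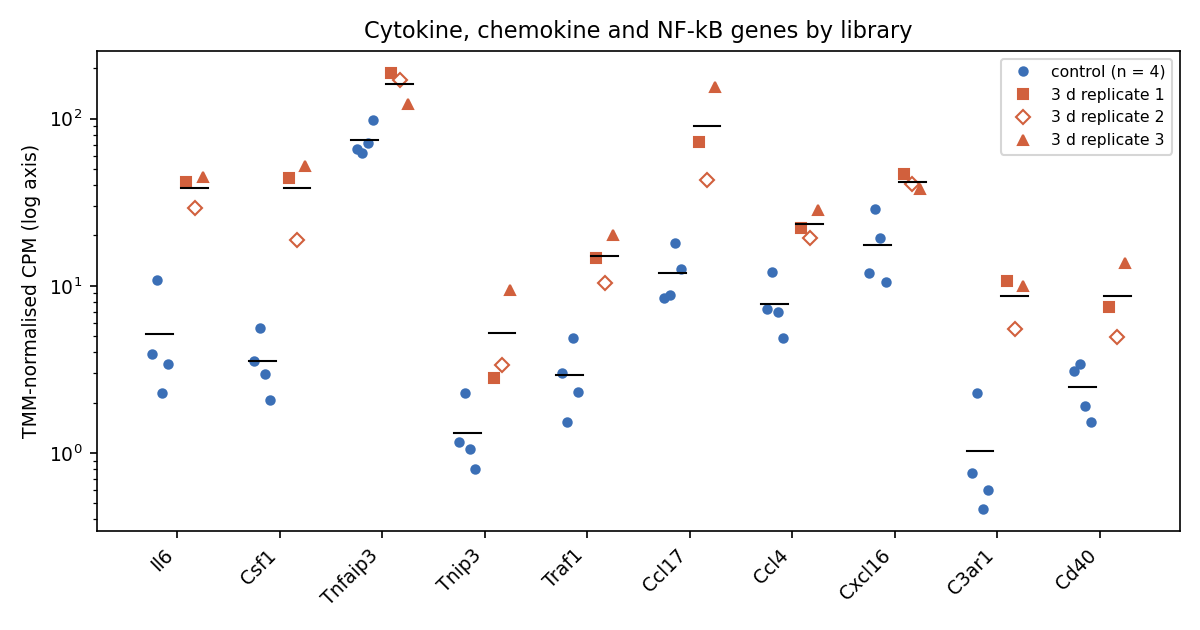
TMM-normalised CPM (log axis) of 10 called cytokine, chemokine and NF-kB genes by library, with symbols as for the mast cell and basophil genes; black lines are group means. Each gene shows the 3 d libraries above the 4 controls.

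Among the 21 higher genes named for their size or p, Rgs1, a regulator of G protein signalling, rose from 64.2 to 94.3 CPM in controls to 394, 169 and 506 CPM, by 2.09 on the log2 scale (SE 0.32). Ctsk, a collagen-degrading cathepsin of the alveolar macrophage and lysosome lists, rose by 1.68 (SE 0.32), from 563 to 947 CPM in controls to 3009, 1000 and 2645 CPM. Replicate 2 thus lay just above the highest control, and the call held in 11 of the 20 alternatives. Nedd4, a ubiquitin ligase, rose by 1.84 (SE 0.23), Igf2r, the mannose 6-phosphate receptor, by 1.92 (SE 0.29), and Marcks, an actin-binding protein kinase C substrate, by 1.64 (SE 0.21). The other 16 were Ccl17, Csf1, Il6, S100a4, Il4i1, Lat2, Chil1, Emp1, Bank1, Ndrg1, P2ry10, Cav1, Sept1, Cnn2, Rcsd1 and St8sia4, with log2 fold changes from 1.03 (Cnn2) to 3.44 (Csf1). Il4i1 shares 3423 of its 4080 exonic bases with a gene on the other strand, and S100a4 shares 302 of 584 with another gene on its own strand, so their reads are uncertain.

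Fewer genes fell. Treml4 and C3 kept their calls in 11 of the 20 alternatives, Vsir and Map1lc3a in 12, Pld4 in 13, Pla2g15 in 16, Siglece in 17 and Fcgr4 in 19. Without 3 d replicate 1, and likewise without 3 d replicate 3, 4 genes in all were called lower. Treml4, a myeloid receptor of the TREM family, fell by 1.93 on the log2 scale (SE 0.39, adjusted p = 0.0325), from 32.7, 24.4, 41.6 and 25.2 CPM to 5.09, 14.9 and 4.17 CPM. Fcgr4, an activating Fc receptor for IgG, lay at 186, 186, 209.8 and 174 CPM in controls and at 88.6, 101.7 and 69.2 CPM at 3 d, and fell by 1.13 (SE 0.16, adjusted p = 0.00313). Pld4, an endolysosomal nuclease, fell by 1.21 (SE 0.25). Siglece, an inhibitory sialic acid receptor, fell by 1.35 (SE 0.23) and Vsir (VISTA), an inhibitory ligand, by 1.00 (SE 0.22). C3, the central complement protein, fell by 0.77 (SE 0.17), from 329, 336, 329 and 368 CPM to 147, 263 and 189 CPM. Pla2g15, a lysosomal phospholipase that acts on surfactant lipids, fell by 0.84 (SE 0.16), and Map1lc3a, an autophagosome protein, by 0.93 (SE 0.19). The other 14 named for their size or p were Sftpc, Kcnh4, Pnpla5, Osbpl3, Cd300e, Sh2d3c, Gal, Ctsf, Klf10, Nup210, Orai3, Trib1, Phlda3 and Pex16.

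**Figure D4:**
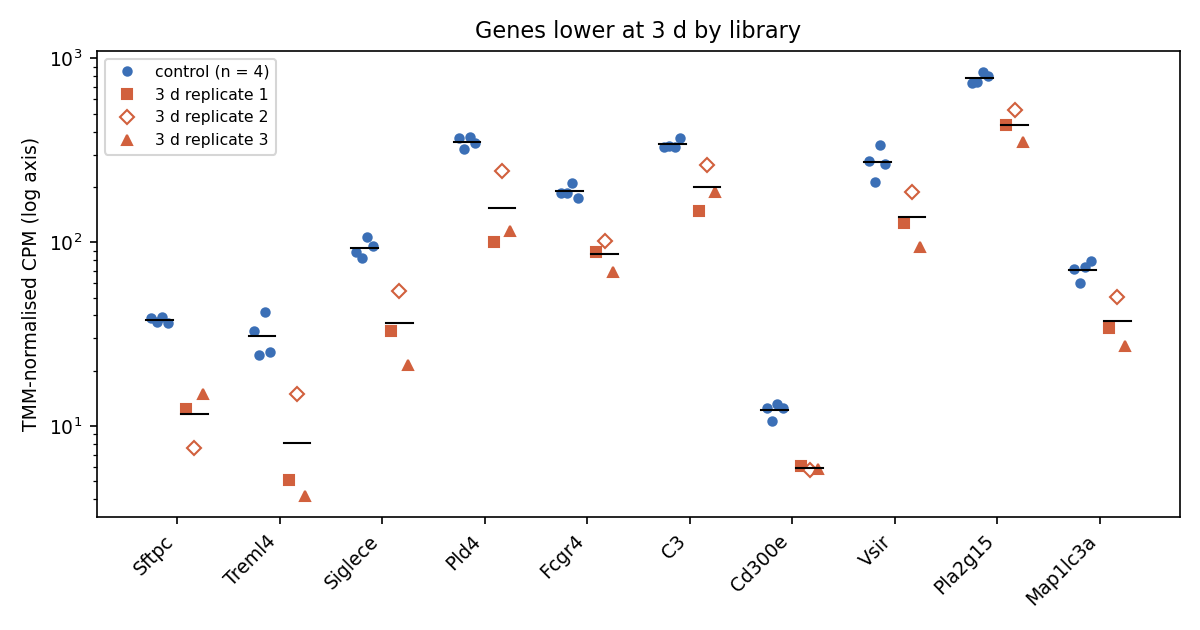
TMM-normalised CPM (log axis) of 10 genes called lower at 3 d, with symbols as for the mast cell and basophil genes; black lines are group means. Each 3 d library lies below every control, and replicate 2 is the highest of the 3 d libraries except for Sftpc and Cd300e.

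Genes of alveolar macrophage identity were mostly not called: of 35, Ctsk was higher, 0 were lower, 9 had an unadjusted p under 0.05, and the median log2 fold change was -0.15. Of all 20944 genes tested, 2944 had such a p. Several surface and lipid genes were split by library. Ear1, an eosinophil-associated ribonuclease gene, lay at 439 to 758 CPM in controls and at 52.2, 494 and 70.0 CPM at 3 d. Ear1 and Ear2 belong to a family of near-identical genes, so their reads are uncertain. Siglecf, on which the cells were sorted, was split in the same way, as given above. Cidec, a lipid droplet protein gene, lay at 284 to 594 CPM in controls and at 114, 267 and 108 CPM at 3 d. In each of these 3 genes, replicates 1 and 3 lay below all controls and replicate 2 near them. Without replicate 2, where 1476 genes were called, 8 of the 35 were called lower (Siglecf, Fcgr1, Fabp1, Cidec, Abcg1, Abca1, Ear1 and Ear2) and 3 higher (Car4, Fabp5 and Ctsk). Car4, a carbonic anhydrase, lay at 607 to 2016 CPM in controls and at 3985, 1494 and 4205 CPM at 3 d.

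Of 17 monocyte genes tested, Ms4a4c, Ifitm3, S100a4 and Chil1 were called higher and Treml4 lower, with a median log2 fold change of 1.54. Itgam, the CD11b gene that the sort selected against, lay at 0.73 to 2.66 CPM in controls and at 18.3, 3.65 and 12.4 CPM at 3 d, against 240 to 383 CPM in control monocytes; its adjusted p was 0.0585, and 3450 of its 5024 exonic bases lie in another annotated gene on the same strand. Without replicate 2, 10 monocyte genes were called higher and 1 lower, whereas 0 were called without 3 d replicate 1, 1 without control replicate 1 and 2 without 3 d replicate 3 or control replicates 3 or 4. All 9 B cell genes lay above 1-fold, with a median log2 fold change of 1.55 and 0 called by edgeR, though 8 had an unadjusted p under 0.05; their sum was 146 to 737 CPM in controls and 645 to 1435 at 3 d. Without replicate 2, 6 of them were called higher. The 7 eosinophil genes summed to 9.83 to 12.3 CPM in controls and to 114, 17.4 and 85.9 CPM at 3 d, with 0 called. Neutrophil genes gave 1 call of 13, Retnlg, which held in 7 of the 20 alternatives and in none that left out 1 library from the full fit. Endothelial genes gave 1 of 12 (Pecam1, 13 of 20), and interstitial macrophage, dendritic cell, fibroblast, and T and NK cell genes 0. Of 15 interstitial macrophage genes 13 lay above 1-fold, with a median log2 fold change of 1.145. Erythroid and platelet genes gave 1 of 7, Itga2b, higher by 2.79 (SE 0.37) and called in all 20 alternatives. The median of the 7 was -2.32, with 2 above 1-fold. The erythroid and platelet sum was 45.5 to 789.8 CPM in controls and 16.3 to 131.5 at 3 d. By a two-sided exact permutation test over the 7 libraries, the summed mast cell and basophil level gave p = 0.0571, the smallest this design allows, and 0.163 after adjustment over 20 library measures. The interstitial macrophage, dendritic cell, eosinophil, epithelial and mitochondrial sums and the Xist counts gave the same values, so that this test ranks none of them above another. The part of these other cell types in the results was not tested.

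**Figure D5:**
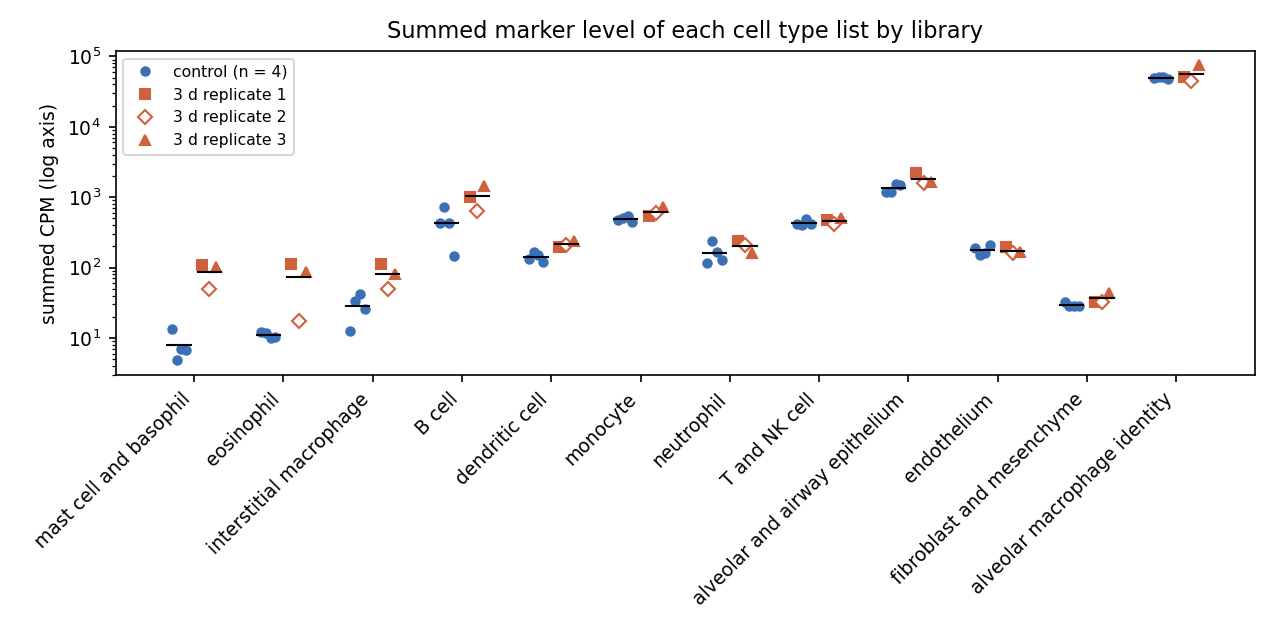
Summed TMM-normalised CPM (log axis) of the markers of 12 cell types in the 4 control (blue circles) and the 3 d libraries; black lines are group means. The mast cell and basophil, eosinophil, interstitial macrophage, dendritic cell, and alveolar and airway epithelium sums lie above every control in all 3 d libraries. The alveolar macrophage sum remains far above the others in each library. Of its mean of 49850 CPM in controls and 56960 at 3 d, Chil3 alone took 23800 and 29970. Chil3 lay at 7020 to 14900 CPM in the control monocytes.

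Of 13 mitochondrially encoded genes of the respiratory chain, mt-Co2, mt-Cytb, mt-Nd1, mt-Nd5 and mt-Nd6 were called higher, 0 lower and 8 not called, 11 lying above 1-fold, with a median log2 fold change of 0.68. mt-Cytb, of complex III, rose from 3221, 3072, 2793 and 3324 CPM to 5539, 4452 and 5658 CPM, by 0.75 on the log2 scale (SE 0.16, adjusted p = 0.0292). The 13 genes together took 18210 to 21260 CPM in controls and 26090 to 34450 at 3 d. Of the 13, 0 were called without control replicates 1, 3 or 4 or 3 d replicates 1 or 3, 3 without control replicate 2, and 8 without 3 d replicate 2. Of the 78 nuclear genes of the same complexes 0 were called, with a median of 0.15; without replicate 2, 16 were higher and 1 lower. Of 82 ribosomal protein genes 0 were called, 7 having an unadjusted p under 0.05, as had 2944 of all 20944 tested. Without replicate 2, 4 were higher, in a fit that called 5.77% of all genes tested.

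In hypoxia and glycolysis, 2 of 30 genes were called higher. Ddit4, an inhibitor of mTORC1, rose from 3.36, 3.04, 6.16 and 2.92 CPM to 19.6, 13.8 and 18.4 CPM, a log2 fold change of 2.15 (SE 0.25, adjusted p = 0.000507), and Ndrg1 rose by 1.68 (SE 0.30). The metallothionein gene Mt2, a zinc-binding protein, rose by 1.25 (SE 0.25), and shares 432 of 588 exonic bases with a gene on the other strand. Scd1, the stearoyl-CoA desaturase, was the 1 called gene of 16 in fatty acid synthesis, with a log2 fold change of 1.13 (SE 0.20). Timd4, a phosphatidylserine receptor, rose by 2.47 (SE 0.39) and Itgb3 by 1.86 (SE 0.37), of 25 genes of scavenging and efferocytosis. The calls of Ddit4 and Timd4 held in all 20 alternatives, Ndrg1 in 19, Scd1 in 16, Itgb3 in 15 and Mt2 in 12. With 3 d replicate 2 left out, a fit that called 5.77% of all genes tested, 4 hypoxia and glycolysis genes were higher and 1 lower, and 4 and 3 of the scavenging genes. By edgeR 0 genes were called of 43 in the type I interferon response (5 at an unadjusted p under 0.05), of 18 in MHC class I (3), of 27 in sterol synthesis (4), of 21 in the unfolded protein response (2), of 20 in the integrated stress response (5), of 24 in the NRF2 response (6) and of 29 in DNA replication (0). Over all 20944 genes tested, 2944 had an unadjusted p under 0.05. Without 3 d replicate 2, 2 interferon genes were higher and 1 lower. Of the unfolded protein response, 3 (Hspa5, Manf and Creld2) were then higher and 1 (Xbp1) lower, and of the integrated stress response 1 and 2. These counts stand beside the same 5.77% of all genes. Of 29 mitosis genes Kif23 was called lower, with an adjusted p of 0.0426 that passed in 7 of the 20 alternatives and under no other edgeR scaling, 0 lay above 1-fold, and the median log2 fold change was -0.36.

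At 14 d, 66 of the 267 genes called at 3 d (24.7%) were called in the opposite direction between 14 d and 3 d. Another 75 (28.1%) were called in the same direction and 126 not at all, whereas 56.4% of all genes tested were called between those times. The same 3 d libraries enter both contrasts. Genes picked for their 3 d levels therefore lean toward the opposite direction, and the split by direction was not tested. Ms4a2 was lower at 14 d than at 3 d by 2.99 on the log2 scale, at a mean of 2.07 ± 0.94 CPM (SD, n = 3), and Il6 by 3.03, at 4.70 ± 1.85 CPM (SD, n = 3). Hdc, which also rose at 3 d, was not called between the times, at 28.84 ± 12.15 CPM at 14 d (SD, n = 3). Csf1 was higher at 14 d than at 3 d by 1.49, at 108 ± 48.3 CPM (SD, n = 3). The 14 d libraries held 433 to 966 Y chromosome counts and 4610720 to 6838893 counts in all, so that time, sex and depth cannot be told apart there.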

How the data were processed

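RNA of sorted mouse lung macrophages was read as paired ends after oligo(dT) selection. The authors deposited raw counts per Ensembl gene; per the labels, the processing notes name STAR 2.7.2c and 2.7.3a, featureCounts 1.6.3, DESeq2 1.26.0 and 1.28.1, and GRCm38, with no role or order given. The strand setting and annotation release are not given in the sources used here. Symbols came from GENCODE M21, and 87 identifiers had none. The 10 macrophage libraries (4 control, 3 at 3 d, 3 at 14 d) were fitted together by edgeR 4.0.16 (R 4.3.3) with filterByExpr, TMM factors and the robust quasi-likelihood test. Genes with Benjamini-Hochberg adjusted p under 0.05 and fold over 1.5 were called. The SE is the absolute log2 fold change over the square root of F. Log2 levels used a prior count of 2. A count of 3 corresponds to 0.176 to 0.281 CPM in the 7 libraries, counting error only. On simulated counts with 200 changed genes, 46 of 100 at 2-fold and 82 of 100 at 4-fold were recovered, with 10 false calls. Genes were named from 49 lists, and by direction as the 15 largest changes above a mean log2 CPM of 3 and the 10 smallest p, without overlap between groups. Members and lists were chosen with earlier results of these data known. Genes outside this rule are marked, and a gene that met it is not reported here. Deviations of same-numbered control and 3 d libraries correlated at -0.028 to 0.228, and the main fit used no pairing. DESeq2 1.42.0, other scalings, filters, call rules and each library left out were the alternatives.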

Additional observations from a re-analysis of the deposited data

Results flagged for a closer look

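A control library stood apart from the other controls in 8 of 120 quantities by Dixon's test at the 95% level, and chance flags about 1 in 20. C3ar1 was at 2.28 CPM in control replicate 2 against 0.459 to 0.753 in the others, Epas1 at 52.0 CPM against 30.5 to 31.3, and Cacnb3 at 1.82 CPM against 3.19 to 3.29. Control replicate 3 had Ddit4 at 6.16 CPM, Il2ra at 1.44 CPM and a T and NK cell sum of 492 CPM. Control replicate 1 had Cldn4 at 0.0685 CPM, where the others had 0, and a fibroblast and mesenchyme sum of 32.3 CPM. Epas1, Cacnb3, Il2ra and Cldn4 were picked after their values were seen.

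By the test of the difference between 14 d and 3 d (log2, 14 d minus 3 d), Fcer1a differed by -3.44, Il6 by -3.03, Ms4a2 by -2.99, Cpa3 by -2.28, Rgs1 by -2.14, Gata2 by -1.32, Sftpc by 0.88 and Csf1 by 1.49. These genes were picked by hand. Of the others named with the mast cell and basophil genes, Cd200r3 (-3.27), Cyp11a1 (-2.50) and Kit (1.30) were called. Mcpt8 (-1.65), Ifitm1 (-0.62) and Hdc (0.21) were not. Of the 267 genes called at 3 d, 141 differed between the times (24.7% of the 267 in the opposite direction and 28.1% in the same). Over all genes tested the share that differed was 56.4%. The lowest count of Y chromosome genes in a 14 d library was 433, against at most 3 in the controls.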

How the results depend on the processing

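The counts of called genes depended on single libraries. Leaving out each library in turn gave 77 to 1476 called genes, 73 to 802 higher and 4 to 674 lower; the extremes were without 3 d replicate 1 and without 3 d replicate 2. A group of 2 libraries also loosened the filter, so that 24721 to 25621 genes were tested when a 3 d library was left out. Without control replicate 2 the lower count was 74. DESeq2 called 763 (571 higher, 192 lower), and edgeR's test against a 1.5-fold change called 65 (64 and 1). With no filter 80 were lower. The control and 3 d libraries fitted alone gave 197 calls (175 higher and 22 lower) of 15341 genes tested, and 157 of these were among the 267. Those 7 libraries without 3 d replicate 2, an alternative chosen after seeing the data, gave 2020 (1030 and 990). With the replicate number as a block 133 were called (113 and 20). Deviations of same-numbered control and 3 d libraries correlated at 0.016, -0.028 and 0.228, the last for replicate 3. Differently numbered libraries gave -0.142 to 0.18. With so few libraries, these values cannot decide whether the numbers mark pairs. The other scalings gave 260 to 311 calls. No named gene that was called changed sign under any alternative. Genes at a few counts in controls have fold changes that depend on the prior count.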

Other observations

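Among genes called higher outside the lists, and chosen after their values were seen, were secretory genes of the airway lining. Clca1, a goblet cell secretory protein, lay at 0.0664 to 0.548 CPM in controls and at 39.6, 5.12 and 33.4 CPM at 3 d, with a log2 fold change of 6.50 (SE 0.82, adjusted p = 0.00555). Muc5b, an airway mucin, rose by 3.18 (SE 0.60), Bpifb1 by 3.45 (SE 0.67), Pigr, the transporter of polymeric immunoglobulin, by 3.20 (SE 0.63), Wfdc2 by 2.79 (SE 0.51) and Tff2 by 2.51 (SE 0.55). These 5 were highest in 3 d replicate 1, where Muc5b lay at 12.1 CPM, against 4.89 and 1.88 in replicates 2 and 3, and Bpifb1 at 42.6, against 10.1 and 14.9. For each of the 5, every 3 d library lay above every control. Without that library each lost its call, the log2 fold changes being 2.30 for Muc5b, 2.61 for Bpifb1, 2.60 for Pigr, 1.89 for Wfdc2 and 1.62 for Tff2, whereas Clca1 kept its call. The 5 also lost their calls without control replicate 1, and some without other controls. Bpifb1 and Pigr lost theirs without 3 d replicate 3 as well. Without 3 d replicate 1 only 77 genes in all were called, so the loss of a call there was common. Scgb1a1, the club cell secretoglobin, lay at 15.1 to 70.6 CPM in controls and at 653, 319.6 and 380.3 CPM at 3 d, and missed the threshold (adjusted p = 0.0739).

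Receptors and regulators that rose, chosen in the same way, included Il1rl1, the IL-33 receptor, by 2.66 on the log2 scale (SE 0.40), Il18rap by 2.11 (SE 0.28), Il2ra by 2.44 (SE 0.41) and Cish, a feedback inhibitor of STAT5 signalling, by 1.11 (SE 0.20). Aldh1a2, which makes retinoic acid, rose by 2.02 (SE 0.34), and the aryl hydrocarbon receptor gene Ahr by 1.55 (SE 0.28).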
